A study of Mus musculus with 18 samples.

Results

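Keratins are the proteins of the intermediate filaments of epithelial cells, hair and nail. The keratin genes described here were the protein-coding genes of GENCODE release M21 whose symbol is Krt followed by a number, which gave 53 of 21938 protein-coding genes of the mouse genome. The genes for keratin-associated proteins (Krtap), which form the matrix around hair keratins, were left out and used for comparison. The rule used names only and no measured value.

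Accessible chromatin was measured by ATAC-seq, in which the Tn5 transposase cuts and tags exposed DNA, in wild type mouse bone marrow-derived macrophages (BMDMs). The 18 libraries formed 9 groups of 2, and all cells had first received the vehicle DMSO for 1 h. In 1 group the BMDMs were then left untreated, and in 8 groups they received lipopolysaccharide (LPS) or IL-4 at 10 ng/mL for 30 min, 1 h, 2 h or 4 h. The deposited lists combine all 18 libraries into 82391 reference peaks, 59617 extended regions (peaks widened and joined) and 84660 summits, each summit with a score whose scale is not stated. No list has a column per library, so that stimuli, time points and replicates could not be compared and the depth behind each peak is unknown. The absence of a peak thus means that no site passed both the authors' threshold and their filter for overlap between replicates. It does not mean that no cell had open chromatin there.

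Keratin filaments are built from pairs of an acidic type I and a basic type II keratin, such as Krt14 with Krt5 in the basal layer of the epidermis, Krt10 with Krt1 in the layers above it, and Krt18 with Krt8 in simple epithelia. The genes of each type lie side by side in a cluster, with Krt18 as a type I gene at the end of the type II cluster. Macrophages are not epithelial cells, and vimentin is their main cytoplasmic intermediate filament protein. The cells' identity was checked on markers: all 10 of 10 macrophage markers (Spi1, Csf1r, Adgre1, Itgam, Cd68, Lyz2, Fcgr1, Mertk, Cd14 and Ptprc) had a reference peak at most 1000 bp from an annotated start, with scores from 1082 to 2021, and 2 of 8 epithelial markers did (Elf3 at 634 and Ovol1 at 250), beside 56.5% of all protein-coding genes. The median summit score was 737, and another epithelial gene, Grhl1, which is not among these 8, had a start site peak of 1916.

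The type I cluster spanned chr11:99232761-100269871 (mm10, 1037 kb) and held 27 keratin genes, and the type II cluster spanned chr15:101347444-102032027 (685 kb) and held 26, so that 28 genes encoded type I and 25 type II keratins. No keratin gene lay outside these clusters. Most of both clusters was without a reference peak, and each cluster had a longest stretch between neighbouring peaks, which together held 28 of the 53 keratin genes. The sequences at 3 of the peaks beside these stretches are shown because they mark where the stretches without a listed peak began or ended. Each line gives 75 bases to either side of the summit on the plus strand of mm10, 5′ to 3′. Capitals mark a match to the AP-1 motif TGACTCA, the site of Fos and Jun factors. In the last sequence a match (TGAGTCA on this strand) starts 70 bp from the summit and runs 1 base past the end shown, so that it has no capitals.
First peak after the type I stretch, chr11:100282715-100282865: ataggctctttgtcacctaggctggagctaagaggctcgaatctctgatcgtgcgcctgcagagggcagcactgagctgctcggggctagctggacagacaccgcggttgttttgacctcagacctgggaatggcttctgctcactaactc
Last peak before the type II stretch, chr15:101583302-101583452: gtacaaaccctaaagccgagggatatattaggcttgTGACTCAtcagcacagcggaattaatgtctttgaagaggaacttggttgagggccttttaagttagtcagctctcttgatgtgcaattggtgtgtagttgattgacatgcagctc
First peak after the type II stretch, chr15:101973830-101973980: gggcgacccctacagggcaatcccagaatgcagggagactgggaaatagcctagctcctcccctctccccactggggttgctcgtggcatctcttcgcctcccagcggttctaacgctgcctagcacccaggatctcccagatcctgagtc

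The question addressed first was whether keratin start sites were open. A reference peak within 1000 bp of any annotated start site was present at 2 of 53 keratin genes (3.77%), Krt10 and Krt80, against 56.5% of all protein-coding genes (12402 of 21938). Type I and type II genes contributed 1 each. Neither peak lay at the start of the principal isoform. Counting only the most upstream start site of each gene, 0 of 53 keratin genes had a peak, against 52.1% of all protein-coding genes. With a window of 2500 bp, Krt24 was added (1666 bp from its nearest peak) and the share over all protein-coding genes was 59.9%. The next genes by distance were Krt28, at 4619 bp, and Krt88, at 5703 bp. Members of a cluster are neighbours and share peaks: the 53 genes had 14 distinct nearest peaks, and 15 of them shared a single one, so that the genes are not independent observations and no test was applied.

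**Figure D1:**
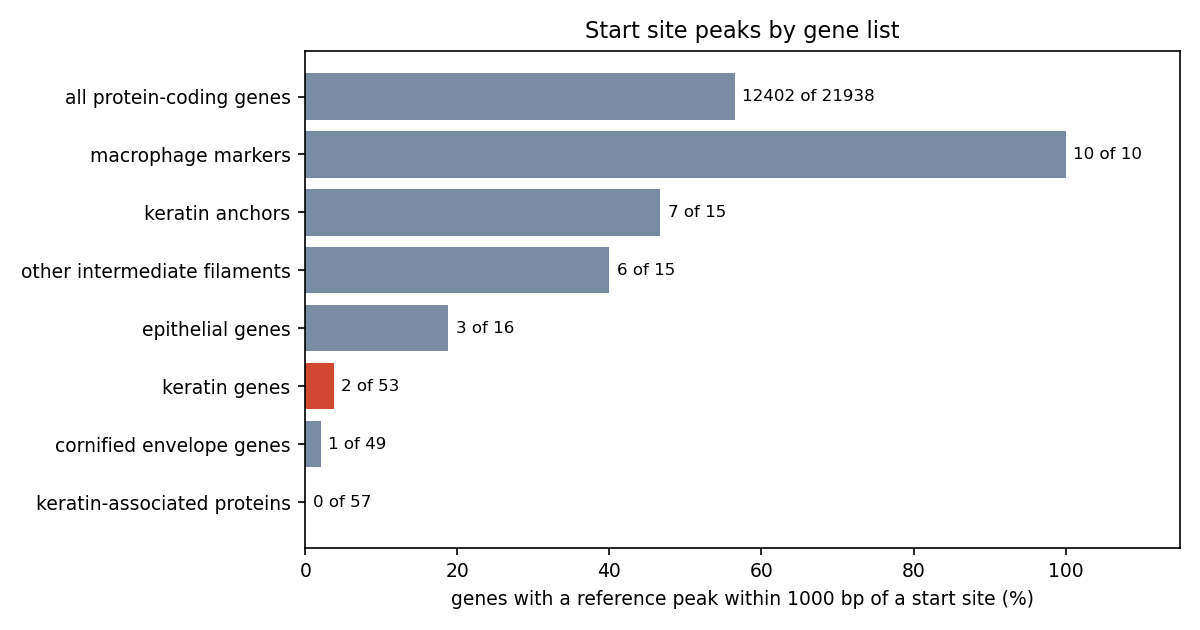
Percentage of genes with a start site peak (1000 bp window), by gene list, from 1 pooled peak list (no error bars, since no list has replicates). Keratin genes (2 of 53) stand beside cornified envelope genes (1 of 49) and keratin-associated proteins (0 of 57), and below the 56.5% of all protein-coding genes. Neighbouring genes within a list are not independent.

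Krt10, the type I keratin of differentiating epidermis, had the peak chr11:99385934-99386202 with a score of 1480. Among genes with a start site peak the median score was 1456 (interquartile range 1071 to 1799), and the Krt10 score stood at percentile 51.4. The peak lay at the start of a second, shorter transcript (position 99386097), while the principal start at 99389364 was 3162 bp away and had none. It covered coding sequence of exon 7 of 8, where the gene encodes the glycine- and serine-rich tail. The summit sequence is shown because it holds a repeat: capitals mark a run of 41 bases that occurs again 60 bases further on, read on the plus strand, opposite to the coding strand.
Krt10 peak, chr11:99385991-99386141: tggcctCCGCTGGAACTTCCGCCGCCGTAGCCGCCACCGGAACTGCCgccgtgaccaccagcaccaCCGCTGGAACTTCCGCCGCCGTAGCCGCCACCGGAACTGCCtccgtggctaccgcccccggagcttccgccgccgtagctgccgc
The peak was rich in GC (71.6%) and in CpG (observed over expected 1.18) in the 201 bases around its summit. Of its stretches of 76 bases, the read length, 0% occurred elsewhere in the genome or again within the peak, and of its stretches of 38 bases, the shortest reads kept, 6.90% did. The same place held the densest CpG window of any keratin gene, with 37 CpG in 201 bases. The next densest windows, in coding sequence of Krt77 (27 CpG) and Krt1 (26 CpG), type II keratins of stratified epithelium, overlapped no peak.

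Krt80, a type II keratin of several epithelia, had the peak chr15:101367601-101367758 with a score of 737, at percentile 10.4 of genes with a start site peak and equal to the median of all summits. It overlapped an untranslated region and covered the start of a shorter transcript (position 101367713), 33 bp from its summit. The principal start at 101370162 was 1935 bp from its nearest peak. Krt80 had 11 extended regions within 50 kb, more than any other keratin gene.

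Simple epithelial keratins (Krt7, Krt8, Krt18, Krt19 and Krt20), which line glands and inner organs, had no start site peak. Measured from the most upstream start, the nearest peak lay at 16077 bp for Krt8, 22854 bp for Krt7, 37550 bp for Krt18, 51948 bp for Krt20 and 134057 bp for Krt19. The partners Krt8 and Krt18 lay together in a stretch of 77.3 kb without a peak. Of the basal layer keratins, Krt14 lay at 75174 bp, Krt5 at 129423 bp and Krt15 at 146794 bp, a range that overlapped that of the simple epithelial keratins. None of these 3 had an extended region within 50 kb, nor did Krt19 and Krt20, which held for 21.1% of all protein-coding genes. The keratins of differentiated stratified epithelium (9 genes) ranged from 3162 bp for Krt10 to 161156 bp for Krt13, an oral and oesophageal keratin, with a median of 89476 bp. Krt1, the partner of Krt10, lay 122967 bp from a peak.

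Keratins of activated epithelium and of appendages ranged from 9310 bp (Krt75) to 110832 bp (Krt6a). Krt6a and Krt6b, near-identical genes raised in wounded skin, had 24.7% and 23.3% of 76-base stretches within 1000 bp of the start site repeated elsewhere, the highest shares of the family, so that reads from them could be placed less well. Krt16 and Krt17, the type I partners of the Krt6 proteins, lay at 33820 and 21693 bp. Inner root sheath keratins of the hair follicle split by cluster: the type I genes Krt25 to Krt28 lay 4619 to 26834 bp from a peak, and the type II genes Krt71, Krt72 and Krt73 lay 159634, 187301 and 171415 bp away. Krt71, Krt72 and Krt73 lay in the same stretch of 390 kb without a peak. Krt25 and Krt26 shared a nearest peak, as did Krt27 and Krt28, so that these distances are not independent. Hair and nail keratins (15 genes) went from 10097 bp for Krt81 to 266510 bp for Krt33a, the largest distance of the family, and 8 of them had no extended region within 50 kb, beside the 21.1% of all protein-coding genes. The remaining genes ranged from 1666 bp for Krt24 to 81097 bp for Krt23.

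**Figure D2:**
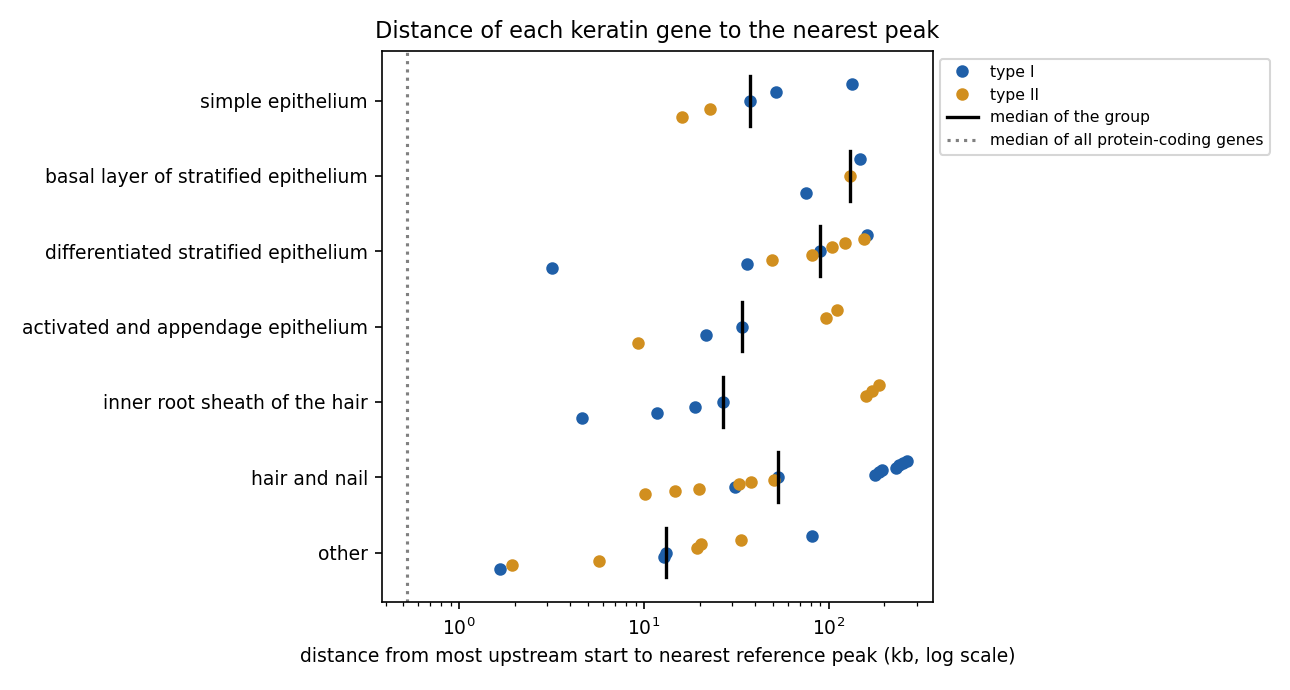
Distance of the most upstream start from the nearest peak, for each of the 53 keratin genes (kb, log scale), by role. Points are genes, coloured by keratin type, black bars are group medians and the dotted line is the median of all protein-coding genes (525.5 bp), to the left of every keratin gene.

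Over the 53 genes the median distance to the nearest peak was 49026 bp, against 525.5 bp for all protein-coding genes, and 18 genes (34.0%) lay over 100 kb from a peak, against 16.7% of all protein-coding genes. The number of extended regions within 50 kb had a median of 1 (range 0 to 11), against 4 for all protein-coding genes. It was 0 for type I and 1 for type II genes. No extended region lay within 50 kb of 25 keratin genes (47.2%), against 21.1% of all protein-coding genes. In all, the windows of the 53 genes held 30 different extended regions, 11 on chromosome 11 and 19 on chromosome 15.

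The type I cluster held 6 reference peaks, or 5.79 per Mb, against 138 per Mb in the 500 kb on either side (72 peaks before and 66 after) and 52.4 per Mb over chromosome 11. The density was 0.0419 times that of the flanks. In the cluster 68 protein-coding genes started, with 27 keratin and 23 Krtap genes among them. Besides the Krt10 peak, the other peaks had scores from 298 to 439, below the median of 737: one in an intron of Krt24 (298), one in an intron of Krt28 (439) and 3 between genes (298, 341 and 430). All 6 peaks lay in the part from Krt24 to beyond Krt40. The longest stretch without a peak, chr11:99574428-100282721 (708 kb), held 52 coding starts, namely 15 keratin genes from Krt33a to Krt42, 20 Krtap genes and 17 others. Among 82370 stretches between neighbouring peaks (median length 5102 bp), it ranked 9 by coding starts and 581 by length, with 113 stretches holding at least 10 coding starts. A second stretch of 188 kb held Krt10, Krt12, Krt20, Krt23, Krt39 and Krt40. Of the 76-base stretches of sequence in the 708 kb, 8.25% were repeated in the genome and of the 38-base stretches 13.1%. The part of read placement in the absence of peaks was not tested.

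The type II cluster held 17 reference peaks, or 24.8 per Mb, against 125 per Mb in the flanks (55 and 70 peaks) and 34.6 per Mb over chromosome 15. The density was 0.199 times that of the flanks. In the first group, 6 peaks stood within 20.6 kb beside Krt80 (chr15:101367601-101388189, scores 384 to 1696), 5 of them in introns of Gm35853, an annotated antisense transcript. A second group of 9 peaks with 10 summits lay within 14.6 kb between Krt78 and Krt8 (chr15:101973761-101988405, scores 266 to 1644), with no annotated gene at the peaks. The other peaks were 1 in coding sequence of Krt88 (685) and 1 between Krt75 and Krt6b (1493). At or above the median score of 737 were 8 of the 17 peaks and 1 of the 6 peaks of the type I cluster. Of all reference peaks, 50.0% scored below 737. The sequences of the best scored peak of each group are shown, with capitals for the C/EBP motif TTGCNNAA in the former and for AP-1 in the latter, as 75 bases on either side of the summit on the plus strand.
Peak beside Krt80, chr15:101375031-101375181: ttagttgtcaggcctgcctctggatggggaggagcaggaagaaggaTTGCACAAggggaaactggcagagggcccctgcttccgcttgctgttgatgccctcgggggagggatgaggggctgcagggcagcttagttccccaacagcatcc
Peak between Krt78 and Krt8, chr15:101977473-101977623: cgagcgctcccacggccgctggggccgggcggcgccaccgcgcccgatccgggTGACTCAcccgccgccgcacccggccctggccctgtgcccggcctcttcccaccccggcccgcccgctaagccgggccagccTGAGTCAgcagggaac
Between the peak beside Krt75 and the group before Krt8, the longest stretch without a peak, chr15:101583476-101973760 (390 kb), held 15 coding starts, 13 of them keratin genes from Krt6b to Krt78 with Krt5, Krt1 and Krt2 among them. It ranked 61 by coding starts. A stretch of 130 kb before it held 7 keratin genes from Krt81 to Krt75. Repeated 76-base stretches made up 4.94% of the 390 kb.

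**Figure D3:**
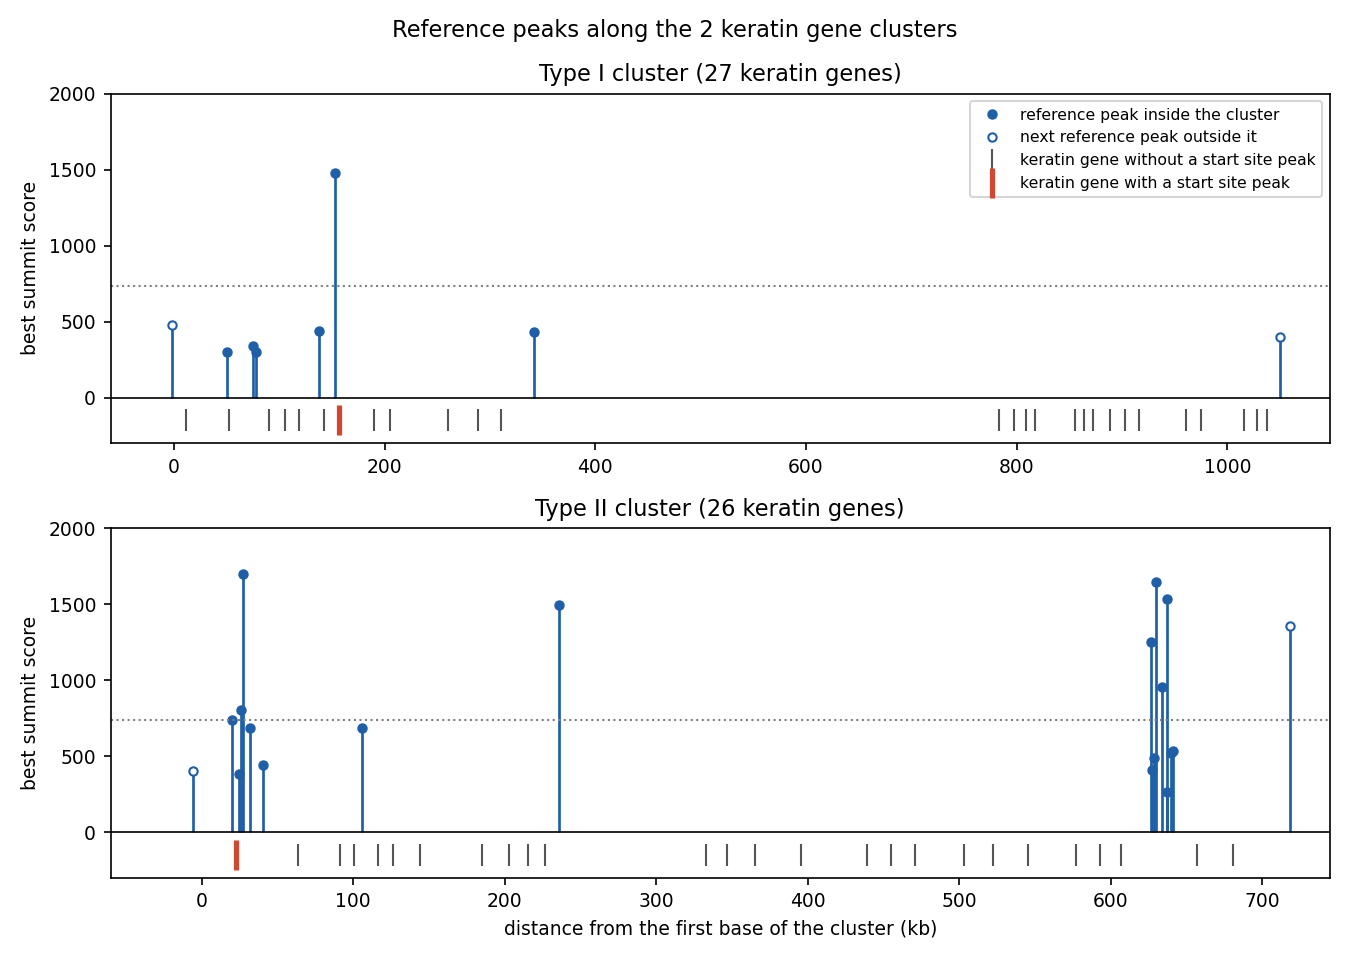
Reference peaks along the type I cluster (top) and type II cluster (bottom). Stems give each peak's best summit score against its distance from the first base of the cluster (kb), the dotted line is the median summit score of 737, and ticks below 0 are the most upstream starts of keratin genes. Both clusters have a long run of ticks with no stem, of 708 kb and 390 kb.

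**Figure D4:**
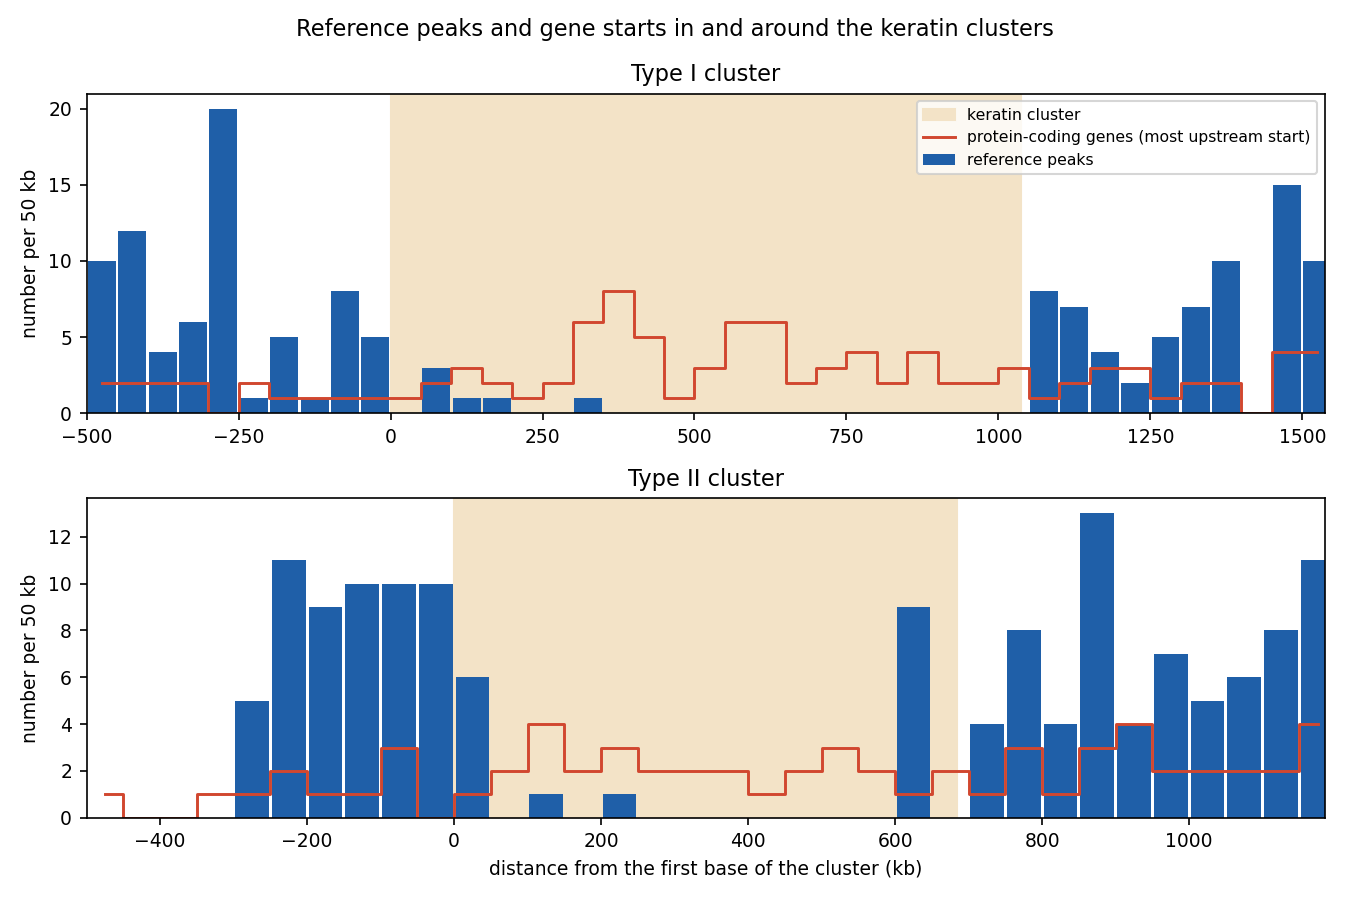
Number of reference peaks (bars) and protein-coding gene starts (line) per 50 kb against distance from the first base of each cluster (kb), with 500 kb on either side. The shaded clusters hold 6 peaks (type I) and 17 peaks (type II, mostly in 2 groups near its ends), while gene starts continue through their interior.

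Of the 20 border genes (the first 5 protein-coding genes on each side of each cluster), 15 had a start site peak, beside 56.5% of all protein-coding genes, 7 of 10 at the type I and 8 of 10 at the type II cluster. Before the type I cluster, Smarce1, a subunit of the BAF chromatin remodeling complex, started 1744 bp from its edge and had 2 start site peaks (best score 583). Next came Ccr7, a chemokine receptor, with its nearest peak at 3936 bp, then Tns4 (573), Igfbp4 (1581) and Top2a (1543). The start site peaks of Tns4 and Igfbp4 lay at other annotated starts than the most upstream one. From that start the nearest peak was 15236 bp away for Tns4 and 1192 bp away for Igfbp4. After the type I cluster, the first gene was the translation factor Eif1 (2074), 50014 bp from the edge. It was followed by Gast, without a peak, Hap1 (563), Jup (1942) and P3h4, without a peak. Jup encodes plakoglobin, which links keratin filaments to desmosomes. Before the type II cluster, 6030408B16Rik had none, and Atg101 (1141), the nuclear receptor gene Nr4a1 (1468), Grasp (1260) and Acvr1b (1619) had start site peaks. After it, Eif4b (2074), another translation factor, lay 41746 bp from the edge, followed by Tns2 (979), Spryd3 (2008), Igfbp6, whose nearest peak was 1115 bp away, and Soat2 (1773).

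Inside the clusters, the genes between the keratins had no start site peak. Of the 97 protein-coding genes that started inside the clusters, 2 had a start site peak, Krt10 and Krt80, against 56.5% of all protein-coding genes. The 21 that carried neither a Krt nor a Krtap symbol (18 in the type I cluster, 3 in the type II cluster, most of them predicted genes such as Gm11595 and Gm5478) had 0 start site peaks.

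Motifs were looked for on either strand, up to 100 bp from each summit, as matches to letters and not as sites of a bound factor. AP-1 (TGACTCA) was found at 5 of the 18 summits in the type II cluster and 0 of the 6 in the type I cluster, against 15.9% of all 84660 summits. Of the 5, 3 lay in the group between Krt78 and Krt8, where the best scored peak held a pair. C/EBP (TTGCNNAA) was found at 3 and 1 summits (11.4% of all summits), the PU.1/ETS motif GAGGAAGT at 2 and 0 (9.08%), and the RUNX motif TGTGGT at 1 and 2 (19.4%). The NF-kB consensus (5.55%), the IRF consensus (3.64%) and the SP/KLF motif GGGGCGGGG (4.46%) were found at 0 of these summits.

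Keratin promoters were poor in CpG, a property that the choice of genes did not use. From 250 bp before to 50 bp after the most upstream start, the observed over expected CpG ratio had a median of 0.26 (0.052 to 0.782), against 0.524 for all protein-coding genes. At or above 0.6 were 3 of the 53 (5.66%), Krt28 (0.782), Krt87 (0.765) and Krt18 (0.644), against 44.4% of all protein-coding genes. None of these 3 had a start site peak, against 84.6% of the 9734 CpG-rich protein-coding genes. Among CpG-poor genes, 2 of 50 keratin genes had one, against 34.2% of 12204. Macrophage markers were poor in CpG too (median 0.219), and 10 of 10 had a start site peak.

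**Figure D5:**
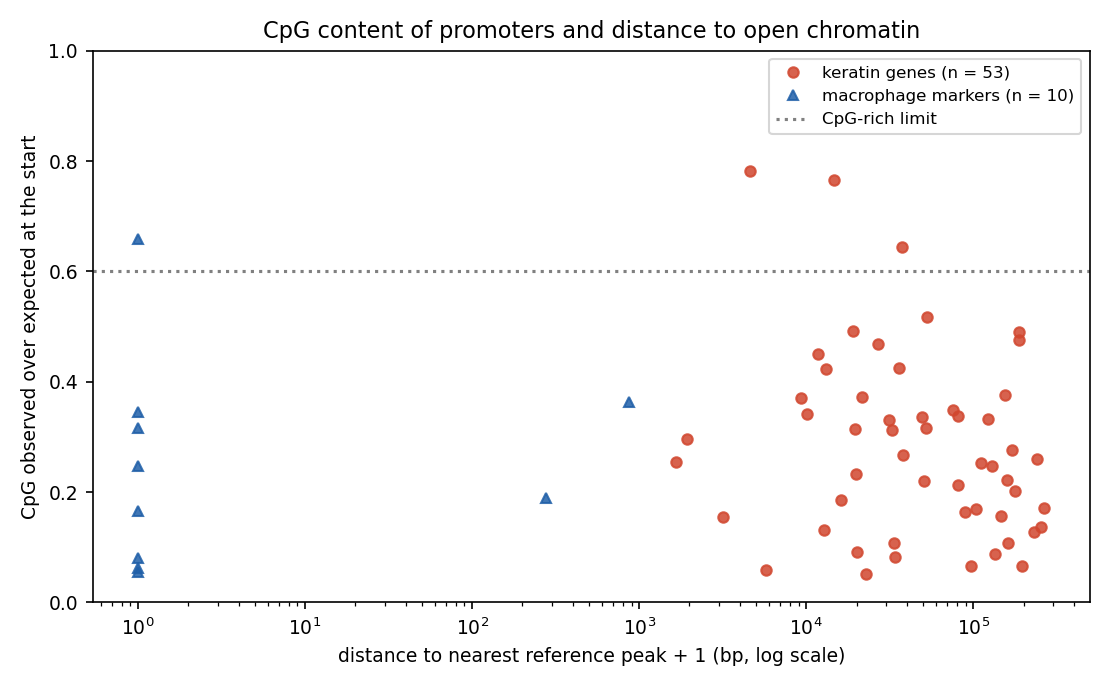
Observed over expected CpG ratio at the most upstream start against the distance to the nearest reference peak plus 1 (bp, log scale) for 53 keratin genes and 10 macrophage markers, with the dotted line at the limit of 0.6. Both groups are mostly below 0.6. Measured from the most upstream start, the macrophage markers lie within 867 bp of a peak and every keratin gene lies at least 1666 bp away.

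Lists of related genes are given beside the 56.5% of all protein-coding genes with a start site peak. Of 15 genes for other intermediate filament proteins, 6 (40.0%) had one: vimentin (Vim, 1296), the nuclear lamins Lmna (2193), Lmnb1 (1734) and Lmnb2 (945), Gfap (934) and Synm (889). Of 15 genes for proteins that anchor or bind keratin filaments, 7 (46.7%) had one: the plakins Plec (1942) and Dst (1531), the armadillo proteins Jup (1942) and Pkp4 (1644), the integrin Itga6 (1632), and the keratin-binding proteins Fbf1 (1929) and Tchp (968). Of 16 epithelial genes, the transcription factors Grhl1 (1916), Elf3 (634) and Ovol1 (250) had one. Of 49 cornified envelope genes, which build the dead outer layer of skin, Tgm1, a transglutaminase (1236), had one. The Lce and Sprr genes of this list lay in a single stretch without a peak, chr3:90710410-93444642, and are not independent observations. Of 57 Krtap genes, 0 had a start site peak, and 43 had no extended region within 50 kb, which held for 21.1% of all protein-coding genes.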

How the data were processed

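ATAC-seq libraries (single-end reads of 76 bases) were made from 9 groups of BMDMs. By the methods of the study, adapters were taken off with BBDuk and the reads trimmed with Trimmomatic (version 0.39 per the submitters' notes). The authors discarded reads under 38 bases, aligned to mm10 with the mapping step of ShortStack, filtered with SAMtools (1.9) and called peaks with MACS2 (2.2.6), keeping duplicates, using no local background and retaining peaks shared between replicates. Keeping duplicates lets PCR copies add to a peak, and how reads with several best places were treated affects duplicated genes. No shift to the Tn5 cut is named. The deposited files are lists of peaks and extended regions, whose other deposited columns hold no measurement (a value of 0 throughout), and summits with a score, as deposited by the authors, of unstated scale. No list has a column per library, so depth and precision per library are unknown, and the comparison of groups in the labels was not made. 0 columns belonged to other samples.

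Positions are on mm10, counted from 1. Genes came from GENCODE release M21 on GRCm38.p6, with the same coordinates. A start site peak was any overlap of a reference peak with 1000 bp around an annotated start. Clusters ran from the first to the last base of their keratin genes, with 500 kb flanks. Stretches of 76 and 38 bases were counted on both strands of 21 chromosomes. Analyses used Python 3.11.15, pandas 2.3.3, pysam 0.24.0 and numba 0.67.0 and were tested on simulated data. The members and lists were chosen with earlier results of these data known. Named genes are the keratins with a start site peak, the nearest and farthest of each role, the border genes, and the list members with a start site peak; others were chosen after their values were seen. The sequence of 1 peak beside the type I stretch, and the matches of 1 of 8 motifs searched, are not reported here. Alternatives were other windows, peak lists, start sites and score limits.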

Additional observations from a re-analysis of the deposited data

How the results depend on the processing

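Of 24 alternative values of 7 results, 18 stayed within 1.5 times the reported value and 6 moved by more. The count of keratin genes with a start site peak, 2 of 53, became 0 with the most upstream start site only and 0 with principal isoforms only. The shares of all protein-coding genes at these settings were 52.1% and 53.4%. The median number of extended regions within 50 kb, 1, became 0 within 20 kb and 2 within 100 kb, where all protein-coding genes had 2 and 9. The density of the type I cluster over its flanks, 0.0419, became 0.0657 for extended regions and 0.0119 for peaks at or above the median score. With those peaks only, the longest stretch of the type I cluster grew from 708.3 to 909.2 kb. No paired analysis was possible because the lists have no column per library, and for the same reason no replicate could be left out. Regions without a listed peak could hold sites under the authors' threshold or sites not shared between replicates. The depth, which bears on this, is unknown. Reads from near-identical genes such as Krt6a and Krt6b may not have been placed.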
